A study of Mus musculus with 6 samples.

Results

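Striated muscle genes other than the myosin heavy chains and actins were followed in RNA from whole mouse eyes late and early in the light phase. The set holds 40 named genes of the sarcomere, of excitation-contraction coupling and of the myogenic programme, listed by gene symbol. The list was drawn up with earlier results of these data known, so counts of members called are descriptions only. All 40 had a row among the 22692 gene symbols of the tables. The eyes came from female C57BL/6J mice, an inbred laboratory strain, aged 4 weeks. There were 3 libraries from eyes taken 9.0 h after light onset and 3 from eyes taken 1.5 h after light onset, with no other treatment or genotype. Each library was made from RNA pooled from 5 mice. No label says that the libraries of a time hold separate mice, so the p-values below measure the spread between libraries, which may be technical.

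The sarcomere is the contractile unit of striated muscle. Thick filaments of myosin slide along thin filaments of actin, tropomyosin and troponin, while titin, the Z-disc and the M-band hold both in register. A nerve impulse opens the calcium release channel of the sarcoplasmic reticulum, calcium binds troponin C and the fibre contracts until calcium pumps clear it. Many of these proteins exist as separate fast-fibre and slow-fibre isoforms encoded by different genes. The eye carries striated muscle on its outer surface as the extraocular muscles, which insert on the sclera and mix many fibre types. In a whole-eye sample, fewer muscle cells and less RNA per muscle cell cannot be told apart.

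Values are in RPKM, a read density scaled by gene length and library size. Levels can be compared only roughly between genes, since the annotation is not stated and some members share exon sequence with other genes. Steps in the low values put the depth at about 24060000 to 31750000 reads per library at 9.0 h. At 1.5 h, replicate 1 had about 29000000 reads and replicates 2 and 3 about 12710000 and 13020000. The times were compared with limma, a linear model fitted across all genes, on log2(RPKM + 0.1). The fit held the 13490 genes that reached 1 RPKM in 3 of the 6 libraries. Fold changes are 9.0 h over 1.5 h on that log2 scale, their error is the standard error (SE), and a gene was called at a Benjamini-Hochberg adjusted p of 0.05. Of the 40 members, 36 entered the test. Ttn, Myom2, Myod1 and Myog were below the minimum, and Lrrc30 passed it only through its 1.5 h libraries.

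Muscle RNA was plentiful in these eyes. Summed over the 40 members, the level was 2082, 2367 and 2384 RPKM in 9.0 h replicates 1 to 3, against 1416, 2668 and 2151 RPKM in 1.5 h replicates 1 to 3. The times overlapped, and 1.5 h replicate 1 had the lowest sum. The most abundant member by its mean was Mb, the oxygen-storing myoglobin, with 190.4, 221 and 219 RPKM at 9.0 h and 175, 362 and 237 RPKM at 1.5 h. Next came Mylpf, the regulatory light chain of fast myosin, with 224, 256 and 235 RPKM at 9.0 h and 136, 256 and 243 RPKM at 1.5 h. Both genes overlapped between the times. Of 9 heart genes, 3 reached the minimum (Myl4, Tnnt2 and Myl7). Myl4 lay between 6.29 and 9.20 RPKM at 9.0 h and between 7.20 and 11.2 RPKM at 1.5 h. Tnnt2 lay between 1.46 and 1.84 RPKM at 9.0 h and between 1.01 and 1.97 RPKM at 1.5 h. Myh6, the atrial myosin heavy chain, lay between 0.0218 and 0.0273 RPKM at 9.0 h and between 0.0340 and 0.0387 RPKM at 1.5 h (chosen after its values were seen).

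Tcap was the member that rose. It encodes telethonin, which caps titin at the Z-disc, and it had 135, 149 and 207 RPKM at 9.0 h, against 62.7, 75.2 and 57.9 RPKM at 1.5 h. Every 9.0 h library lay above every 1.5 h library, with means of 164 ± 38.1 RPKM at 9.0 h and 65.3 ± 8.92 RPKM at 1.5 h (SD, n = 3 each). The log2 fold change was 1.31 ± 0.19 (SE; limma adjusted p = 0.0224), a 2.51-fold ratio of means. The gene has 1 annotated transcript of 948 nt with no exon shared with another gene. Its values stood for about 4071, 4255 and 4723 reads at 9.0 h and 1724, 906 and 715 reads at 1.5 h. It had the highest GC content of the 40 members (61.3%). With the trends on GC content and length removed from each library, its log2 fold change was 1.09 (limma adjusted p = 0.0209). Its partner titin, Ttn, was listed at 0.365, 0.457 and 0.354 RPKM at 9.0 h and 0.485, 0.694 and 0.665 RPKM at 1.5 h. All 9.0 h libraries were below all 1.5 h libraries for Ttn. It was tested only when no minimum was set, with a log2 fold change of −0.53 (limma adjusted p = 0.479).

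Lrrc30 was the member that fell. It encodes a leucine-rich repeat protein and had 0.588, 0.847 and 0.589 RPKM at 9.0 h, against 2.56, 6.60 and 3.75 RPKM at 1.5 h. The times did not overlap, although the 1.5 h libraries differed widely among themselves. The log2 fold change was −2.42 ± 0.30 (SE; limma adjusted p = 0.0138). On its single transcript of 1760 nt these values stood for about 33, 45 and 25 reads at 9.0 h and 131, 148 and 86 reads at 1.5 h. The GC and length correction left the log2 fold change at −2.49 (limma adjusted p = 0.0131).

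**Figure D1:**
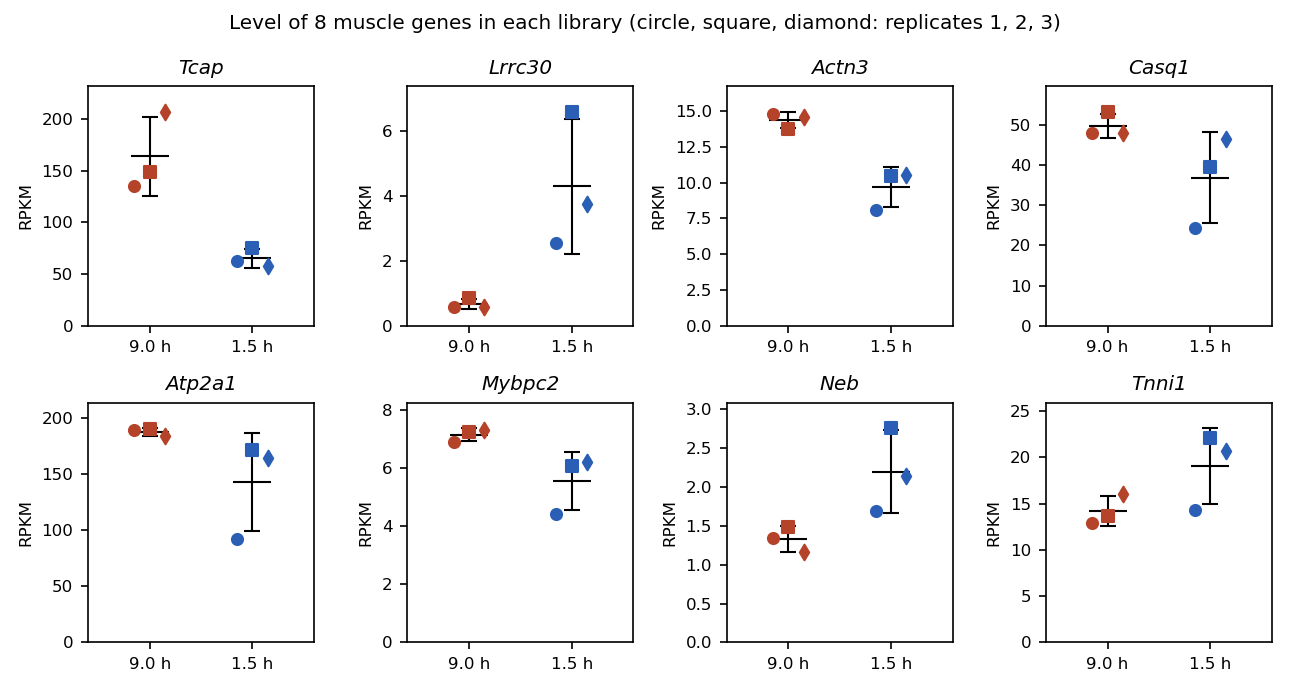
Level in RPKM (linear axes from 0) of 8 genes in each library at 9.0 h (left, red) and 1.5 h (right, blue), with bars for the mean and SD of 3 libraries. Tcap, Actn3, Casq1, Atp2a1 and Mybpc2 lie higher at 9.0 h with no overlap and Lrrc30 and Neb lower, while Tnni1 overlaps between the times.

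Sequence just upstream of the start was compared for Lrrc30, as the called member with an entry, and for a pair of isoforms with fold changes of opposite sign (Casq1 and Casq2) and slow Tnni1. Promoters came from RefSeq (GRCm38.p6, not the mm9 build of the tables), as the 250 bases before an annotated start, and 28 of the 40 members had one. The palindrome CAGCTG, an E-box form bound by MyoD-type factors, was found in 14 of the 28 (50.0%), against 14.7% of 27018 genes. The form CACGTG, bound by clock factors, was found in 1 (Actn2; 3.57%), against 6.86%. A MEF2 motif on either strand was found in 4 (Casq2, Myoz2, Pvalb and Ttn; 14.3%), against 3.41%. A match is a description of the sequence only. In the lines that follow, 5′ to 3′ in the direction of the gene, capitals mark CAGCTG, or the MEF2 match in Casq2. The stretches are chr17:67632724-67632973 (minus strand) for Lrrc30, chr1:172219896-172220145 (minus strand) for Casq1, chr3:102086165-102086414 (plus strand) for Casq2 and chr1:135799171-135799420 (plus strand), the first of 2 starts, for Tnni1.
Lrrc30: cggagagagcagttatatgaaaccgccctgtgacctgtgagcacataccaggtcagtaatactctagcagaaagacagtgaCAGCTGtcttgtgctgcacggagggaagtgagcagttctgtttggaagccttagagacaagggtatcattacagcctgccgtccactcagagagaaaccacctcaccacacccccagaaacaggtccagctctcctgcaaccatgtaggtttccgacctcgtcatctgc
Casq1: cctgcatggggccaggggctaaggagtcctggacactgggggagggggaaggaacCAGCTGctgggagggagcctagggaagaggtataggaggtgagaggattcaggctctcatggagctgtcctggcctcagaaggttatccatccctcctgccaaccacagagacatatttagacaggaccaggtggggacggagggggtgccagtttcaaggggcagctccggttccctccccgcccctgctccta
Casq2: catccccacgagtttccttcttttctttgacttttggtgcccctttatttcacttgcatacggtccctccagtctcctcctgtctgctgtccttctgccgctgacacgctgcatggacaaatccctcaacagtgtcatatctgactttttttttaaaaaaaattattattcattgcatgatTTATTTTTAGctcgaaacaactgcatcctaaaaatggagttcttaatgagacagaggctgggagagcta
Tnni1: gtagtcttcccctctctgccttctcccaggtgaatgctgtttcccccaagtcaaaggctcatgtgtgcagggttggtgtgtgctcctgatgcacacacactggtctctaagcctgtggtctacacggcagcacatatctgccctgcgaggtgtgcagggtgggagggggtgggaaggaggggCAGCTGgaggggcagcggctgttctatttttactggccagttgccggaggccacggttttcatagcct
CAGCTG began 169 bases before the start in Lrrc30, 195 in Casq1 and 68 in Tnni1. Among the stretches shown, it was thus present beside the gene that fell, a fast gene and a slow gene, and absent beside slow Casq2.

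Called members were 2 of 36, against 0.222% of all tested genes. Tcap was the 1 higher at 9.0 h, against 0.148%, and Lrrc30 the 1 lower, against 0.0741%. Lrrc30 entered the test only through the 1.5 h libraries, where it was high. With no minimum, limma adjusted p was 0.0303 for Lrrc30 and 0.0474 for Tcap. With GC and length trends removed the same 2 passed, against 0.628% of genes (0.419% higher and 0.209% lower). At an unadjusted p of 0.05, 9 of 36 members passed, against 11.1%. Of these, 6 were higher, against 6.47%, and 3 lower, against 4.58%. Without overlap between the times were 5 members higher at 9.0 h (Actn3, Atp2a1, Casq1, Mybpc2 and Tcap), against 9.78% of genes, and 2 lower (Lrrc30 and Neb), against 8.41%. The median log2 fold change of the 36 was −0.0045, against −0.0031 for all tested genes, with 17 members above 0 and 19 below.

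Both calls depended on which libraries were kept. Neither gene passed without 9.0 h replicate 1, without 9.0 h replicate 3 or without 1.5 h replicate 3. In those fits Tcap had limma adjusted p = 0.12, 0.247 and 0.112, and Lrrc30 had limma adjusted p = 0.132, 0.247 and 0.0609. Without 9.0 h replicate 2, Tcap had limma adjusted p = 0.0695 and Lrrc30 passed. Tcap was also short of the threshold when each library was centred on its median (limma adjusted p = 0.0513). Leaving out any 1 library gave log2 fold changes of 1.13 to 1.44 for Tcap and −2.73 to −2.06 for Lrrc30. A pseudocount of 1 RPKM in place of 0.1 RPKM gave 1.30 for Tcap and −1.60 for the scarcer Lrrc30, which were still called.

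Members were next read by role. Among the 6 thick-filament genes, 3 fold changes were above 0 and 3 below, and none was called. Mybpc2, the fast myosin-binding protein C, had 6.91, 7.26 and 7.32 RPKM at 9.0 h and 4.42, 6.08 and 6.22 RPKM at 1.5 h. Its times did not overlap (log2 fold change 0.37 ± 0.16; limma adjusted p = 0.439). Its slow counterpart Mybpc1 had 17.3, 17.5 and 15.0 RPKM at 9.0 h and 14.7, 26.3 and 19.9 RPKM at 1.5 h (−0.25 ± 0.20) and overlapped. Myl1, a fast alkali light chain, had 148, 196 and 154 RPKM at 9.0 h and 74.8, 149 and 123 RPKM at 1.5 h (0.57 ± 0.24; limma adjusted p = 0.409). Its 9.0 h values began just under the highest 1.5 h value. The slow light chain Myl2 had 6.59, 6.96 and 7.40 RPKM at 9.0 h and 4.68, 11.2 and 8.71 RPKM at 1.5 h (−0.14 ± 0.26). Slow Myl3 had 1.68, 1.59 and 1.75 RPKM at 9.0 h and 1.07, 1.75 and 2.47 RPKM at 1.5 h (−0.0024 ± 0.26), and both overlapped. The fast light chain Mylpf, whose levels are given above, had a log2 fold change of 0.22 ± 0.23.

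Thin-filament genes gave no call in 9. Troponin I, the inhibitory subunit, has a fast gene Tnni2 and a slow gene Tnni1. Tnni1 had 12.9, 13.7 and 16.0 RPKM at 9.0 h and 14.3, 22.04 and 20.7 RPKM at 1.5 h (−0.40 ± 0.18; limma adjusted p = 0.447), and only 1.5 h replicate 1 lay within the 9.0 h range. Tnni2 had 188, 209 and 229 RPKM at 9.0 h and 156, 289 and 214 RPKM at 1.5 h (−0.036 ± 0.21). Troponin T anchors the complex to tropomyosin: fast Tnnt3 had 152, 164 and 174 RPKM at 9.0 h and 88.9, 199 and 156 RPKM at 1.5 h (0.22 ± 0.25). Slow Tnnt1 had 29.9, 30.5 and 31.7 RPKM at 9.0 h and 20.6, 46.4 and 34.2 RPKM at 1.5 h (−0.06 ± 0.24). In both genes the 9.0 h libraries lay between the lowest and the highest 1.5 h library. The calcium sensor Tnnc2 of fast fibres had 169, 199.6 and 209 RPKM at 9.0 h and 134, 236 and 189.9 RPKM at 1.5 h (0.08 ± 0.21), and shares 74.0% of its exon length with Ube2c in a later annotation, so its value is uncertain. Slow Tnnc1 had 11.3, 10.3 and 12.9 RPKM at 9.0 h and 8.77, 13.9 and 15.0 RPKM at 1.5 h (−0.09 ± 0.20).

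Neb, the giant ruler of the thin filament, had 1.34, 1.49 and 1.16 RPKM at 9.0 h, against 1.69, 2.76 and 2.14 RPKM at 1.5 h. It did not overlap between the times (−0.66 ± 0.21; limma adjusted p = 0.282), and its log2 fold change was −0.20 with GC and length trends removed. The tropomyosins, which cover the myosin sites on actin, are also made by smooth muscle. Tpm1 had 61.1, 70.6 and 64.8 RPKM at 9.0 h and 46.6, 81.3 and 66.4 RPKM at 1.5 h (0.05 ± 0.19). Tpm2 had 89.8, 95.6 and 102 RPKM at 9.0 h and 56.0, 112 and 81.0 RPKM at 1.5 h (0.26 ± 0.22), and both overlapped.

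Of the 8 tested genes of the Z-disc and M-band, Tcap alone was called. Actn3, the fast-fibre alpha-actinin, came nearest among the rest by adjusted p. It had 14.8, 13.8 and 14.6 RPKM at 9.0 h, against 8.12, 10.47 and 10.52 RPKM at 1.5 h, with no overlap (0.57 ± 0.15; limma adjusted p = 0.189). Actn2, the alpha-actinin of all fibres, had 16.9, 15.5 and 15.0 RPKM at 9.0 h and 7.25, 15.6 and 17.1 RPKM at 1.5 h (0.34 ± 0.27), where 1.5 h replicate 1 stood far below the other 5 libraries. Myoz1, a calcineurin-binding Z-disc protein of fast fibres, had 26.3, 32.8 and 29.1 RPKM at 9.0 h and 18.7, 26.6 and 22.6 RPKM at 1.5 h (0.39 ± 0.16; limma adjusted p = 0.409). Its slow relative Myoz2 had 4.13, 6.43 and 5.68 RPKM at 9.0 h and 2.36, 7.01 and 9.24 RPKM at 1.5 h (−0.0097 ± 0.48). Both overlapped, and Myoz2 had its extremes in 2 of the 1.5 h libraries. Myot, which binds alpha-actinin, had 8.18, 11.5 and 10.0 RPKM at 9.0 h and 6.10, 20.7 and 14.0 RPKM at 1.5 h (−0.30 ± 0.40). Ldb3, a further alpha-actinin partner, had 7.27, 8.28 and 7.01 RPKM at 9.0 h and 5.11, 11.8 and 10.8 RPKM at 1.5 h (−0.20 ± 0.27). Both spread most widely among the 1.5 h libraries. Myom1, an M-band crosslinker, had 5.28, 5.43 and 5.25 RPKM at 9.0 h and 3.90, 6.43 and 5.98 RPKM at 1.5 h (0.00090 ± 0.19). Myom2 was listed at 0.279, 0.114 and 0.142 RPKM at 9.0 h and 0.132, 0.174 and 0.108 RPKM at 1.5 h.

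Calcium-handling genes also gave no call among 9. Cacna1s, the voltage sensor of the surface membrane, had 4.65, 4.79 and 4.71 RPKM at 9.0 h and 4.03, 4.92 and 4.53 RPKM at 1.5 h (0.07 ± 0.15). Ryr1, the release channel it opens, had 1.94, 1.90 and 2.08 RPKM at 9.0 h and 1.71, 1.71 and 2.05 RPKM at 1.5 h (0.11 ± 0.17). Both overlapped, with log2 fold changes smaller than their SE. Casq1, the calcium-binding protein of the fast-fibre reticulum, had 48.0, 53.3 and 47.9 RPKM at 9.0 h and 24.4, 39.6 and 46.5 RPKM at 1.5 h, with no overlap (0.48 ± 0.21; limma adjusted p = 0.44). Atp2a1, the fast calcium pump, had 189.5, 190.2 and 184 RPKM at 9.0 h and 92.5, 172 and 164 RPKM at 1.5 h, again with no overlap (0.45 ± 0.22; limma adjusted p = 0.497). Atp2a1 shares 21.9% of its exon length with Rabep2. For Casq1 and Atp2a1 the lowest library was 1.5 h replicate 1.

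The slow and cardiac Casq2 had 3.58, 3.65 and 2.43 RPKM at 9.0 h and 2.56, 5.71 and 5.11 RPKM at 1.5 h (−0.40 ± 0.28). Atp2a2, a pump that most cell types make, had 37.9, 33.4 and 30.1 RPKM at 9.0 h and 34.7, 34.02 and 36.7 RPKM at 1.5 h (−0.06 ± 0.14). Both overlapped. Sln, a small protein that restrains the pump, had 11.6, 20.6 and 18.4 RPKM at 9.0 h and 12.6, 30.0 and 24.0 RPKM at 1.5 h (−0.35 ± 0.32). Trdn, which links calsequestrin to the release channel, had 3.36, 4.97 and 3.81 RPKM at 9.0 h and 1.76, 6.76 and 5.35 RPKM at 1.5 h (−0.0066 ± 0.45). In both, 1.5 h replicates 2 and 3 were the highest libraries. Pvalb, a calcium buffer also made by retinal neurons, had 111, 157 and 132 RPKM at 9.0 h and 74.5, 135 and 101 RPKM at 1.5 h (0.40 ± 0.22).

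None of the 3 energy genes was called. Ckm, the muscle creatine kinase, had 138, 151 and 182 RPKM at 9.0 h and 111, 239 and 187 RPKM at 1.5 h (−0.13 ± 0.25). Mb, which shares 31.9% of its exon length with other genes, had −0.23 ± 0.24, and Ucp3, a mitochondrial carrier with a mean of 0.983 RPKM at 9.0 h and 1.07 RPKM at 1.5 h, had −0.12 ± 0.20. The myogenic transcription factors Myod1 and Myog were too scarce for the test. With no minimum their log2 fold changes were −0.59 (limma adjusted p = 0.584) for Myod1 and −0.22 (limma adjusted p = 0.894) for Myog. Myod1 was listed at 0.490, 0.697 and 0.760 RPKM at 9.0 h and 0.631, 1.57 and 1.03 RPKM at 1.5 h, from about 29 to 39 reads at 9.0 h and 25 to 37 reads at 1.5 h. Myog was listed at 0.975, 0.873 and 0.644 RPKM at 9.0 h and 0.419, 1.33 and 1.55 RPKM at 1.5 h. Both overlapped between the times.

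**Figure D2:**
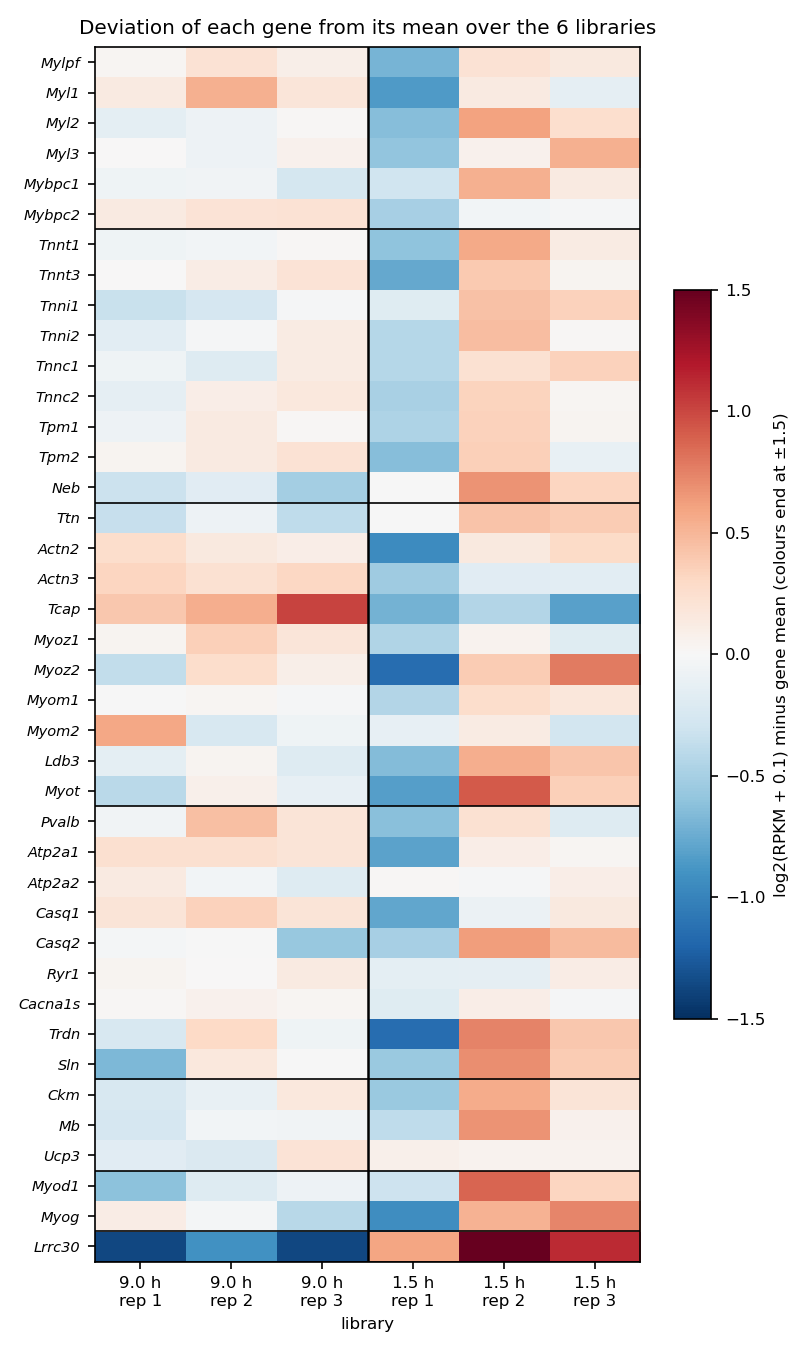
Deviation of each of the 40 members from its own mean over the 6 libraries, in log2(RPKM + 0.1), with 9.0 h libraries left of the line and 1.5 h libraries right of it. Horizontal lines separate the roles in the order thick filament, thin filament, Z-disc and M-band, calcium handling, energy, regulators and Lrrc30, and 1.5 h replicate 1 is the column in which most members are low.

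One library stood apart in many of these values. In 1.5 h replicate 1, 28 of 36 tested members had their lowest value of the 6 libraries, against 27.0% of all tested genes, and 33 of 36 their lowest of the 3 early libraries, against 41.4%. Over the 36, the median deviation from the gene mean was −0.06, 0.07 and 0.09 in 9.0 h replicates 1 to 3 and −0.54, 0.34 and 0.13 in 1.5 h replicates 1 to 3 (log2 scale). Several other tissues outside the retina were low in that library too. The 11 fibroblast and tendon genes summed to 860 RPKM there, against 1466 to 2022 RPKM in the other 5 libraries, and the 12 lens genes to 89976 RPKM, against 132743 to 170072 RPKM. The 7 peripheral nerve genes summed to 71.5 RPKM there, against 96.6 to 256 RPKM, and the 9 adipose genes to 13.6 RPKM, against 16.2 to 42.0 RPKM. The 10 smooth muscle genes summed to 191 RPKM and the 10 rod genes to 13871 RPKM, both inside the range of the other libraries. No list had all its genes at 0. The part of tissue content in the muscle values was not tested.

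Leaving out 1.5 h replicate 1 moved much of the set downwards. Of the 36 members 13 then passed, against 9.23% of all tested genes. Of these, 12 were lower at 9.0 h, against 4.27%, and 1 was higher (Tcap), against 4.96%. The median of the 36 was −0.19, against −0.01 for all genes, and 26 were below 0. The genes that passed as lower were Casq2, Ldb3, Lrrc30, Mb, Mybpc1, Myl2, Myot, Myoz2, Neb, Sln, Tnni1 and Trdn. Myot, for example, had a log2 fold change of −0.79 (limma adjusted p = 7.95e-05) and Sln −0.71 (limma adjusted p = 0.000454). In the library left out, Myot was below its 9.0 h range and Sln inside it. By overlap alone, 16 members were then wholly lower at 9.0 h, against 19.4% of genes, and 5 wholly higher, against 18.8%.

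These p-values came from a fit with almost unlimited degrees of freedom (a median of 40470, against 10.54 with all libraries). With neither trend nor robust settings, 5 of 36 members passed without that library, against 3.06% of all genes. Tcap was higher, against 1.75%, and Casq2, Lrrc30, Myot and Neb were lower, against 1.31%. With GC and length trends removed as well as that library, 10 members passed, against 4.79%. Tcap was again higher, against 2.75%, and 9 were lower, against 2.04%. The 9 were Casq2, Ckm, Ldb3, Lrrc30, Mb, Myl2, Myot, Tnni1 and Tnnt1.

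Some other muscle genes varied widely among the same libraries, though not all in 1 direction. Myh13, the myosin heavy chain typical of these muscles, was listed at 0.350, 1.35 and 0.321 RPKM at 9.0 h and 0.231, 4.99 and 4.29 RPKM at 1.5 h. Cox8b, a muscle subunit of cytochrome oxidase, had 12.01, 17.3 and 18.1 RPKM at 9.0 h and 11.8, 51.0 and 36.5 RPKM at 1.5 h. Both were highest in 1.5 h replicates 2 and 3 and lowest in 1.5 h replicate 1, and their part in the members' values was not tested. Both were chosen after their values were seen. Among the other heavy chains, Myh3 and Myh7 were also highest in 1.5 h replicates 2 and 3 and lowest in 1.5 h replicate 1. Their log2 fold changes were −0.18 and −0.34, and Myh8 and Myh7b had 0.30 and −0.16. The fast chains and the skeletal actin did not follow Myh13. The fast chains Myh1, Myh2 and Myh4 had log2 fold changes of 0.43, 0.48 and 0.44, and Acta1 had 0.90. None was called with all libraries, and Myh1, Myh2 and Acta1 were higher at 9.0 h without overlap.

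**Figure D3:**
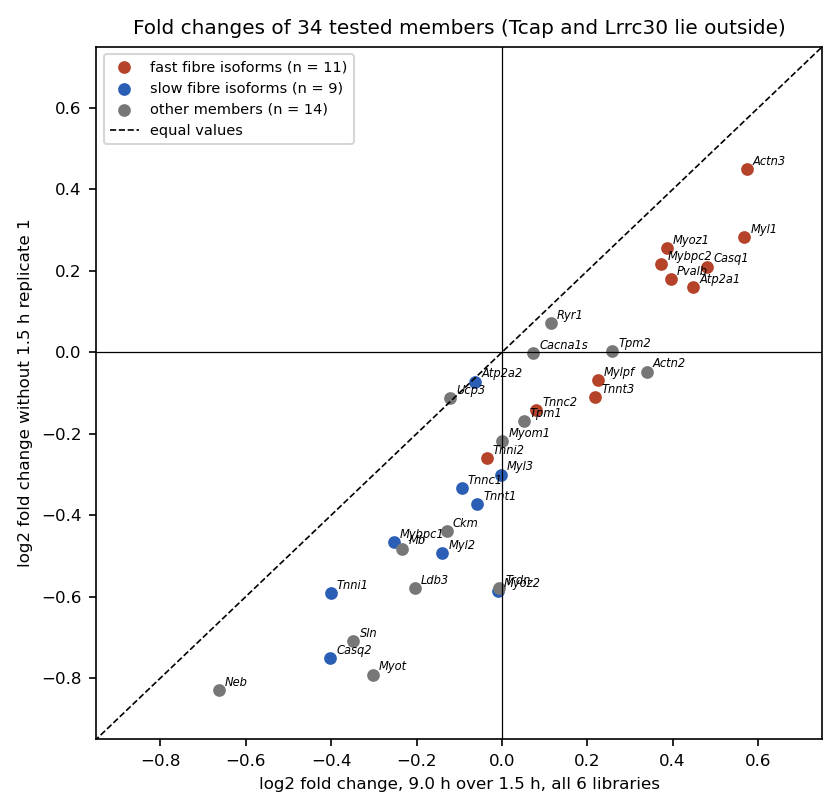
Log2 fold change of 34 tested members (9.0 h over 1.5 h) with all 6 libraries (horizontal) and without 1.5 h replicate 1 (vertical), with the line of equal values dashed. Nearly all points lie under the line, and fast-fibre isoforms (red) lie mostly to the upper right of slow-fibre isoforms (blue); Tcap and Lrrc30 are outside the plotted range.

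The lists of fast and slow isoforms were set side by side, with no test of the difference between them. Of the 11 fast-fibre genes, 10 had fold changes above 0, with a median of 0.39. Of the 9 slow-fibre genes 0 did, with a median of −0.09. Over all tested genes the median was −0.0031, with 49.4% above 0. Outside muscle, 10 of 11 fibroblast and tendon genes were also above 0 (median 0.50), as were 10 of 12 lens genes (median 0.40). No gene of either list was called with all libraries. After quantile normalization 9 fast and 2 slow genes were above 0, and without 1.5 h replicate 2 all 11 fast and 4 slow genes were. Without 1.5 h replicate 1, 7 fast and 0 slow genes were above 0, against 48.1% of all tested genes. The medians were then 0.18 for fast and −0.47 for slow genes. In that fit 5 of the 9 slow genes (Casq2, Mybpc1, Myl2, Myoz2 and Tnni1) passed as lower, against 4.27% of all tested genes. With neither trend nor robust settings, only Casq2 of these 5 passed, against 1.31%, and the others had limma adjusted p between 0.0586 and 0.142. Fast genes were richer in GC, with a median of 54.3%, against 48.7% for slow genes and 50.1% for all tested genes. Across the 36 members, fold change and GC content had Spearman's rho of 0.55, as a description over genes that share their libraries, and 0.35 across the 13378 tested genes with a matched transcript. After the GC and length correction rho was 0.41 for the members and −0.08 for all genes, and the medians were 0.29 for fast and −0.22 for slow genes. With that correction and without 1.5 h replicate 1, the fast median was 0.062 with 6 of 11 genes above 0, and the slow median was −0.44, beside −0.015 for all genes.

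Ratios of a fast gene to its slow counterpart within a library take off any scale that both share. All 9 pairs were higher on average at 9.0 h. Of the 9, 6 did not overlap between the times, against 41.0% of all 630 pairs of tested members in either direction. An exact permutation test of 3 libraries against 3 cannot go below p = 0.1, so none was read. Casq1 over Casq2 was 13.4, 14.6 and 19.7 at 9.0 h and 9.54, 6.93 and 9.10 at 1.5 h. Mybpc2 over Mybpc1 was 0.399, 0.415 and 0.488 at 9.0 h and 0.3001, 0.231 and 0.312 at 1.5 h. Tnnt3 over Tnnt1 was 5.07, 5.36 and 5.496 at 9.0 h and 4.31, 4.29 and 4.55 at 1.5 h. In these 3 pairs, 1.5 h replicate 1 lay below every 9.0 h library, as the other early libraries did. The pairs of Mylpf with Myl2, Myl1 with Myl3, and Tnni2 with Tnni1 were also free of overlap. The ratios were not corrected for GC content, and a trend on GC is not a shared scale. Among these 6 pairs the fast gene was richer in GC for Casq1, Mybpc2, Mylpf and Tnni2, and poorer for Tnnt3 and Myl1. Tnnc2 over Tnnc1, Atp2a1 over Atp2a2 and Myoz1 over Myoz2 overlapped. Myoz1 over Myoz2 was 6.36, 5.10 and 5.11 at 9.0 h and 7.91, 3.79 and 2.45 at 1.5 h, where replicate 1 was the high value.

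**Figure D4:**
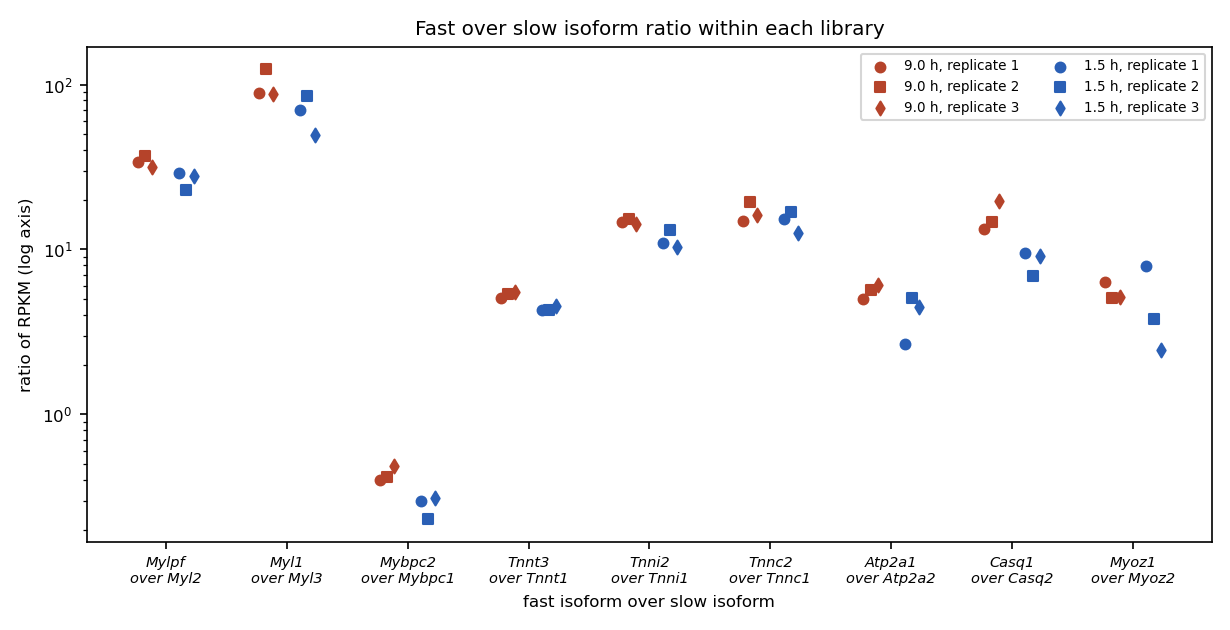
Ratio of RPKM of a fast isoform to its slow counterpart in each library (log axis), with 9.0 h libraries (red) left of 1.5 h libraries (blue) for each of 9 pairs. The 9.0 h points lie above all 1.5 h points in 6 pairs, such as Casq1 over Casq2, and overlap them for Tnnc2, Atp2a1 and Myoz1.

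Muscle genes outside the set served as a yardstick. Of 47 tested striated muscle genes that are not members, 0 were called by limma, 19 were above 0 and 28 below, and the median log2 fold change was −0.08. The most abundant were Eno3, a muscle enolase, and Pgam2, a glycolytic mutase, with 0.16 and 0.53. Without 1.5 h replicate 1, 11 of the 47 were called lower, against 4.27% of all tested genes, and 1 (Capn3) was called higher, against 4.96%. In that fit the 10 tested myosin heavy chain and sarcomeric actin genes had a median of −0.05. Of them only Acta1 was called, as higher (log2 fold change 0.63, limma adjusted p = 0.00686), against 4.96% of all tested genes. With all libraries the 10 had a median of 0.20 with 0 called, and the most abundant, Acta1 and Actc1, had 0.90 and 0.11. When the median deviation of the 47 genes was taken off each library, 9 members lay higher at 9.0 h without overlap, against 4.87% of all tested genes. They were Tcap, Actn3, Myl1, Casq1, Atp2a1, Pvalb, Myoz1, Mybpc2 and Mylpf, of which all but Tcap are on the fast-fibre list. Lower without overlap were 3 members (Lrrc30, Neb and Tnni1), against 4.03%. Both shares cover genes of all tissues, from which the muscle yardstick was also taken off. They were 9.78% and 8.41% before that step, so they are not a like-for-like background for muscle genes. On this relative log2 scale the differences ran from 1.34 for Tcap and 0.61 for Actn3 to −0.37 for Tnni1, −0.63 for Neb and −2.39 for Lrrc30. With the myosin heavy chains and sarcomeric actins as the yardstick instead, the differences were 1.06 for Tcap, 0.32 for Actn3, 0.32 for Myl1, 0.12 for Mybpc2, −0.03 for Mylpf, −0.65 for Tnni1, −0.92 for Neb and −2.67 for Lrrc30. Mylpf thus changed sign with the yardstick, and the differences of Tnni1 and of the other fast genes named as higher moved by more than 1.5 times. These relative values have no test.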

How the data were processed

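Poly(A) RNA from whole eyes was sequenced after random-primed cDNA synthesis, per the labels' protocols. The authors deposited 1 table per library with RPKM values per gene symbol. The unit was read from the values, which no header names. GSNAP, HTSeq and the mm9 build are named per the submitters' processing notes. Their versions, the annotation and any use of strand are not stated. With the strand unknown, reads of overlapping genes may be mixed: 15 of 40 members share exon sequence with another gene in GENCODE M21 (GRCm38), 3 of them over more than 20% (Tnnc2, Mb and Atp2a1).

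A count test could not be the main one on RPKM, so limma 3.58.1 (R 4.3.3; eBayes with trend and robust settings) was used on log2(RPKM + 0.1), two-sided, with Benjamini-Hochberg adjustment over 13490 genes. A pseudocount understates the change of low genes. The test was run first on simulated data with independent noise for each gene, which held no shift shared by genes within a library. Depth was estimated from single-length genes, whose values times length fall on whole steps (within 0.1 read for 70.2% to 74.1% of low values). GC content came from the longest GENCODE transcript, matched for 99.2% of tested genes, and a loess trend with span 0.5 was removed per library. Members, gene lists, tests and alternatives were chosen with earlier results of these data known. Every member may be named. Those called, without overlap, most or least abundant, or changing call are given per library, and other genes are named if called or most abundant in their list; any further gene (Myh13, Cox8b, Myh6 and the other heavy chains) was chosen after its values were seen. The loess correction, and both added settings without 1.5 h replicate 1, were chosen after the data were seen.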

Additional observations from a re-analysis of the deposited data

How the results depend on the processing

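Tcap and Lrrc30 were called with pseudocounts of 0.01 and 1 RPKM, with other minimums, after quantile normalization, with GC and length trends removed, and with neither trend nor robust settings. Centring libraries on their medians left Lrrc30 alone, 1 member. Counts over all genes were 15 after quantile normalization and 15 after centring, 84 with GC and length trends removed, and 30 as reported. Leaving out 1 library at a time gave 2 to 1245 genes and 0 to 13 members, with a member median between −0.19 and 0.16. Without 1.5 h replicate 1, the settings without trend called 413 genes and 5 members, and those with GC and length trends removed 641 and 10. Relative to myosin heavy chains and sarcomeric actins in place of other muscle genes, the median member difference was −0.26, against 0.03.

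No label says whether the replicate numbers pair the libraries. Deviations of same-numbered libraries correlated at 0.35, 0.48 and −0.21, and those of differently numbered libraries at −0.54 to 0.23, which does not settle it. With the replicate block, 141 genes and 2 members passed.

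Tcap and Lrrc30, the members called with all libraries, kept their sign in every alternative run. So did some members not called with all libraries. Actn3, Casq1, Mybpc2, Myl1, Myoz1, Pvalb and Ryr1 stayed above 0, and Casq2, Mybpc1, Neb, Sln, Tnni1 and Ucp3 stayed below 0. Among the others, including several called only without 1.5 h replicate 1, leaving out 1 library at a time gave log2 fold changes of either sign: −0.068 to 0.39 for Mylpf, −0.11 to 0.47 for Tnnt3, −0.14 to 0.27 for Tnnc2, −0.17 to 0.23 for Tpm1, −0.047 to 0.57 for Actn2, −0.22 to 0.14 for Myom1, −0.0018 to 0.14 for Cacna1s, −0.44 to 0.11 for Ckm, −0.49 to 0.12 for Myl2, −0.30 to 0.27 for Myl3, −0.37 to 0.21 for Tnnt1, −0.26 to 0.18 for Tnni2, −0.48 to 0.043 for Mb, −0.59 to 0.38 for Myoz2, −0.58 to 0.015 for Ldb3, −0.79 to 0.081 for Myot, −0.58 to 0.36 for Trdn, −0.33 to 0.052 for Tnnc1 and −0.15 to 0.016 for Atp2a2. Quantile normalization turned the sign, with 0.039 for Myl3, −0.072 for Tnnc2, −0.038 for Tpm1, 0.011 for Myoz2 and 0.041 for Trdn. The pseudocounts did so with 0.0018 for Myl3 (0.01 RPKM) and −0.0035 for Myom1 (1 RPKM), centring with 0.0039 for Myl3, and the GC and length correction with −0.075 for Tnnc2, 0.016 for Atp2a2, 0.088 for Myoz2 and 0.17 for Trdn. Without 1.5 h replicate 1 and without trend settings these were −0.068 for Mylpf, −0.11 for Tnnt3, −0.14 for Tnnc2, −0.17 for Tpm1, −0.047 for Actn2, −0.22 for Myom1 and −0.0018 for Cacna1s, and with the GC and length correction −0.14 for Mylpf, −0.19 for Tnnt3, −0.26 for Tnnc2, −0.18 for Tpm1, −0.14 for Tpm2, −0.0061 for Atp2a1, −0.21 for Actn2, −0.24 for Myom1 and −0.10 for Cacna1s. The cause was not tested. Low members rest on few reads, since 3 reads of Myog stand for up to 0.158 RPKM in 1.5 h replicate 2, counting error alone.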
